A study of Mus musculus with 12 samples.

Results

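Lrp2 and Zfp956 are 2 of the 24421 genes counted in dorsal raphe (DR) tissue of control and STAT3 KO mice. They were chosen by their own levels, because each was read higher in all 8 STAT3 KO animals than in the highest of the 4 controls, and the relation of both genes to the ciliary genes Foxj1 and Hydin was to be described within genotype. STAT3 KO mice were Sert Cre/+; Stat3 fl/fl and controls were Sert Cre/+; Stat3 fl/+ littermates, so that both groups carried Cre and at least 1 floxed Stat3 allele. Controls were thus not wild type. All animals were adults of a C57BL/6 x 129 background, with 2 females and 2 males among the controls and 4 females and 4 males among the STAT3 KO mice. Cre is driven by the serotonin transporter gene, which restricts the deletion to cells that express the transporter. RNA came from a piece of midbrain cut out under the aqueduct, so each library pooled serotonergic cells with glia, vessels and the lining of the ventricle. In such bulk tissue, fewer cells of a type and less RNA per cell cannot be told apart.

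Lrp2 encodes megalin, a very large endocytic receptor of the LDL receptor family. Megalin sits at the apical surface of absorptive and ventricle-lining epithelia, takes up carrier proteins, lipoproteins and morphogens, and is best known from the kidney tubule and the developing forebrain, where it binds Sonic hedgehog. Zfp956 encodes a zinc finger protein that lies in a cluster of zinc finger genes. Many proteins of this class bind DNA and silence it through the co-repressor TRIM28. Foxj1 is the transcription factor that turns on the motile cilia programme, and Hydin encodes a protein of the central pair of the ciliary axoneme; in the brain both are expressed by the multiciliated ependymal cells that line the ventricles and the aqueduct.

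Lrp2 (ENSMUSG00000027070.14) lies on the minus strand of chromosome 2 of GRCm38, from 69424340 to 69586065, with 16701 bases of exon. Zfp956 (ENSMUSG00000045466.18) lies on the plus strand of chromosome 6, from 47953390 to 47965300, with 2968 bases of exon. The 250 bases before each RefSeq start site, read from RefSeq's promoter sequences for GRCm38.p6, are shown because both genes were read at a higher level in STAT3 KO mice. For Zfp956 this start is the one given above, while for Lrp2 the RefSeq start (69586029) lies 36 bases inside the GENCODE gene, so the last 36 bases of its window are within that gene. They cover chr2:69586030-69586279 on the minus strand and chr6:47953140-47953389 on the plus strand, 5′ to 3′, with the GC box GGGCGG and the CCAAT box CCAAT in capitals.
Lrp2: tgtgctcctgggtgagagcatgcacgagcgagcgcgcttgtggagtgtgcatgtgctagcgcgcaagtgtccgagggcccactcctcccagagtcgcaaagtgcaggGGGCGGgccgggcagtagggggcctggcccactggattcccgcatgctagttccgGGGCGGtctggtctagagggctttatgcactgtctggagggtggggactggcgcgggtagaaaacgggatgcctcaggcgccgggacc
Zfp956: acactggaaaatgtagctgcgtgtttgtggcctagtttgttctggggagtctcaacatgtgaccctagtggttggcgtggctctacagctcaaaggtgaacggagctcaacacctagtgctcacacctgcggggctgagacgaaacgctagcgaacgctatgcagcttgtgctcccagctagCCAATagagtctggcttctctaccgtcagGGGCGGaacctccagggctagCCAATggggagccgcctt

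The Lrp2 window had a GC content of 66.4% and the Zfp956 window of 56.4%, against a median of 52.4% over 32851 promoter windows of this length. Both strands were searched, and all matches were on the strand printed. The letters GGGCGG were found at 2 places before Lrp2, which begin 143 and 88 bases before the RefSeq start (107 and 52 before the GENCODE start), and at 1 place before Zfp956, 39 bases before it. CCAAT was found at 2 places before Zfp956, 68 and 18 bases before the start, and at none before Lrp2. GGGCGG is held by 32.7% of all windows and CCAAT by 33.8%. The STAT letters TTCNNNGAA (7.02% of windows), the forkhead letters GTAAACA (3.17%) and the TATA letters TATAAA (12.4%) were in neither window. No match overlaps another.

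Counting depth was 24379588 to 27849492 reads on genes in the controls and 27324999 to 29645210 in STAT3 KO mice. At this depth 3 counts equal 0.101 to 0.123 CPM (a gene's count scaled to the total on genes, per library), and intervals and floors given here cover counting error only. Stat3 itself had a mean level of 65.9 ± 1.26 CPM among controls (SD, n = 4) and of 66.6 ± 2.90 CPM among STAT3 KO mice (SD, n = 8); counts over the whole gene in all cells do not resolve the deleted exons. The labelled tissue carried its defining transcripts in every library, with the 10 serotonergic genes summing to 1631 to 2054 CPM among controls and to 1498 to 2221 CPM among STAT3 KO animals. Some libraries stood apart in genes of neighbouring tissue. The choroid plexus genes, led by the thyroxine carrier Ttr, summed to 288 CPM in STAT3 KO 8 and 285 CPM in STAT3 KO 16, against 47.2 to 65.7 CPM in the other animals. The forebrain neuron genes summed to 341 CPM in control 4, and the cerebellar genes to 654 CPM in STAT3 KO 16 and 353 CPM in STAT3 KO 10.

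Lrp2 was a rare transcript. It was read at 1.07, 1.44, 1.51 and 1.95 CPM in controls 13, 4, 3 and 11, from 26 to 51 counts. In STAT3 KO mice the lowest value was 1.99 CPM, the median 3.15 CPM and the highest 5.42 CPM, from 59 to 157 counts. The ranges did not overlap, which the choice of the gene fixed, but they nearly met. The lowest STAT3 KO animal (KO 15, 95% Poisson interval 1.52 to 2.57 CPM) exceeded the highest control (control 11, 1.45 to 2.56 CPM) by 0.0451 CPM or 2.32%, and the counting intervals of these 2 animals overlapped almost fully. The group means were 1.49 ± 0.360 CPM (SD, n = 4) and 3.28 ± 1.11 CPM (SD, n = 8), a 2.20-fold difference. The log2 difference was 1.06, and 0.92 to 1.20 when 1 animal at a time was left out. Spread was wide in STAT3 KO mice, with a coefficient of variation of 33.9% where counting alone gives 10.4%, so that the variance between animals was 10.9 times the counting variance. In controls it was 2.20 times.

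Zfp956 was read at a middling level with little spread. Controls 13, 4, 3 and 11 had 20.02, 20.14, 19.94 and 21.02 CPM, from 488 to 561 counts. In STAT3 KO mice the lowest value was 22.6 CPM, the median 24.3 CPM and the highest 24.8 CPM, from 626 to 717 counts. The difference was small and even, in that 7 of the 8 STAT3 KO animals lay between 23.9 and 24.8 CPM and KO 8 was the lowest. KO 8 exceeded control 11 by 1.54 CPM or 7.35%, and their counting intervals (20.8 to 24.4 CPM and 19.3 to 22.8 CPM) overlapped. Means were 20.3 ± 0.497 CPM (SD, n = 4) and 24.1 ± 0.731 CPM (SD, n = 8), a 1.19-fold difference, with a log2 difference of 0.25 and of 0.24 to 0.27 without 1 animal at a time. The spread was below what counting alone would give, at 0.320 times the counting variance in controls and 0.616 times in STAT3 KO mice. No p is given for either gene between genotypes, since this contrast chose them.

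**Figure D1:**
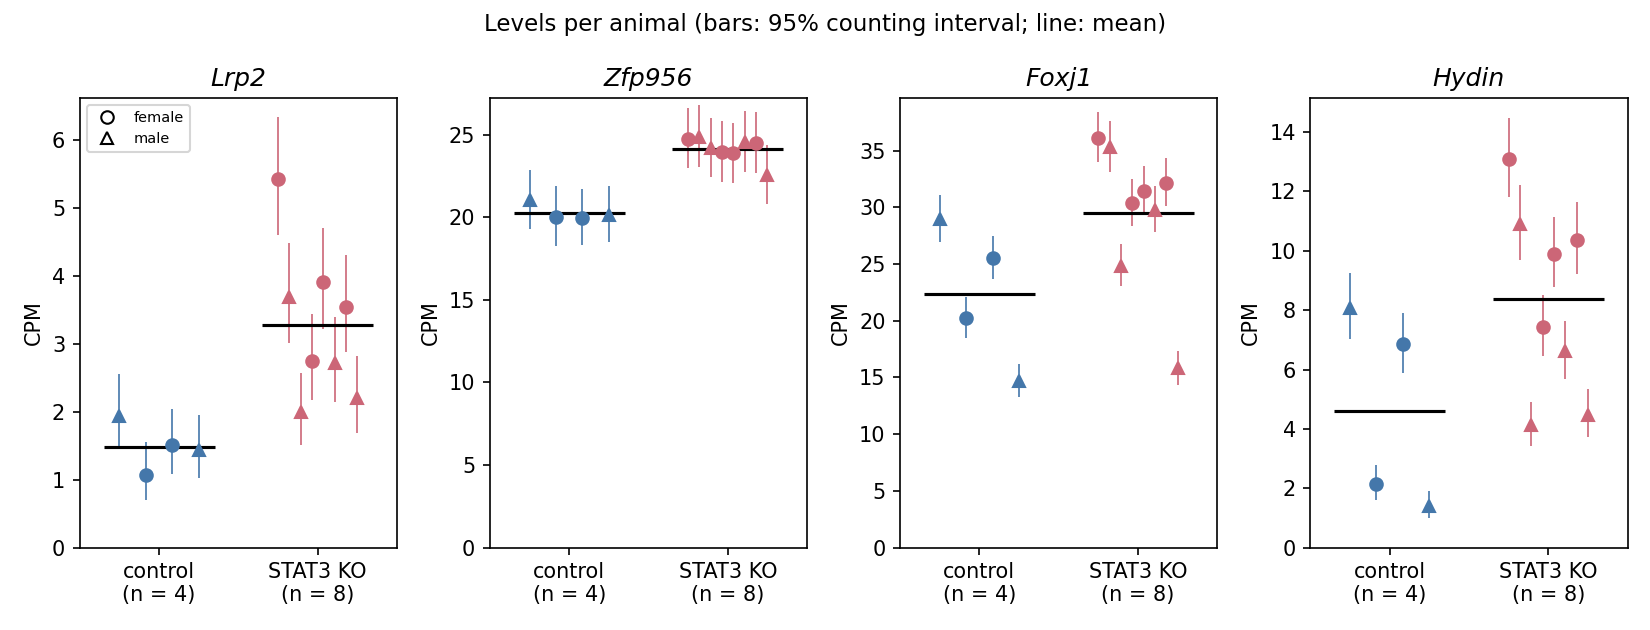
Level in CPM (vertical axes, from 0) of Lrp2, Zfp956, Foxj1 and Hydin in each animal, with 95% Poisson counting intervals as bars, group means as black lines, females as circles and males as triangles. Lrp2 spans 1.99 to 5.42 CPM in STAT3 KO mice, Zfp956 22.6 to 24.8 CPM, and the values of Foxj1 and Hydin overlap between genotypes.

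Over all 15453 genes that passed the expression filter, 56 (0.362%) were higher in every STAT3 KO animal than in the highest control and 20 were lower in every one. The split depended on the scaling. With TMM factors, which were 0.988 to 0.997 in controls and 0.997 to 1.01 in STAT3 KO mice, 33 genes were higher and 33 lower, and with DESeq2's size factors 34 were higher and 38 lower. Both genes kept all 8 animals above the controls under each scaling. With fewer animals the rule is met more easily, and the count was 227 without control 4, 215 without control 11, 135 without control 13, 112 without control 3, 146 without STAT3 KO 8, 104 without KO 7 and 96 without KO 15. Among the 56 genes, Lrp2 had the 2nd largest log2 difference but only the 23rd largest relative gap between the groups and the 49th highest level. Zfp956 had the 23rd largest log2 difference, the 5th largest gap and the 22nd highest level. Just inside the rule was Dmap1, whose lowest STAT3 KO value of 31.69 CPM stood against a highest control of 31.67 CPM, and just outside was Mcee with 17.736 against 17.738 CPM.

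Sex, which had no part in the choice, was then compared within genotype. Lrp2 was read at 3.91 CPM on average in the 4 STAT3 KO females and at 2.65 CPM in the 4 STAT3 KO males. In controls the order was the other way round, with 1.29 CPM in 2 females and 1.69 CPM in 2 males. The difference of males minus females within genotype was -0.24 on the log2 scale (two-sided exact permutation test, p = 0.338, 420 arrangements with a smallest p of 0.0048). This value averages the opposite directions of the 2 genotypes, and the test did not tell it apart from 0. For Zfp956 the difference was 0.0052 (exact permutation p = 0.852). In edgeR's quasi-likelihood test over all genes, 13 genes (0.0841%) differed by sex, and neither Lrp2 (log2 difference -0.30, standard error 0.22, adjusted p = 0.789) nor Zfp956 (0.013, standard error 0.041, adjusted p = 0.956) was one of them. The genotype difference of Lrp2 was 3.03-fold in females and 1.57-fold in males. The interaction of genotype and sex was -0.93 (standard error 0.45) with an adjusted p of 0.918 in the same test, and for Zfp956 it was -0.046 (standard error 0.090, adjusted p = 0.994). No gene passed for the interaction in edgeR's test (0 of 15453), where 848 had an unadjusted p below 0.05. DESeq2, run on the 20056 genes with at least 1 count, called 2. Without control 11, edgeR called 37, but then control 4 was the only control male and was assumed to vary like the other groups.

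Foxj1 and Hydin varied widely within both groups. Foxj1 was read at 20.3, 14.7, 25.5 and 28.9 CPM in controls 13, 4, 3 and 11, and from 15.8 to 36.1 CPM (median 30.9) in STAT3 KO mice. Its values overlapped between genotypes, with 6 of 8 STAT3 KO animals above the highest control. Hydin was read at 2.13, 1.40, 6.84 and 8.09 CPM in the same controls and from 4.12 to 13.1 CPM (median 8.67) in STAT3 KO mice, where 4 of 8 were above the highest control. The genotype difference of Foxj1 was 0.38 on the log2 scale (standard error 0.19, unadjusted p = 0.069, adjusted p = 0.682, both by edgeR). That of Hydin was 0.83 (standard error 0.41, unadjusted p = 0.060, adjusted p = 0.660). Without control 4 these were 0.22 and 0.53, and without control 11 they were 0.53 and 1.25. Over all 15453 genes 1184 (7.66%) had an unadjusted p below 0.05 between genotypes by edgeR. By the same test 0 had an adjusted p below 0.05, where the lowest was 0.387. DESeq2, run on the 20056 genes with at least 1 count, called 6.

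The pairs of Lrp2 and Zfp956 with Foxj1, Hydin and the gene lists were chosen with earlier results of these data known. Their p values are therefore a description, without independent support. Within the 8 STAT3 KO animals, Lrp2 followed the ciliary genes closely. Its log2 CPM had a Pearson r of 0.961 with Hydin (exact permutation p = 0.0002, adjusted p = 0.0028 over 14 pairs, Spearman rho 0.929 with adjusted p = 0.0156). Without STAT3 KO 15 and 8, the animals with Hydin values farthest from the median, r was 0.938 (exact permutation p = 0.0111, n = 6). STAT3 KO 10, the animal with the most Hydin, had the most Lrp2, and the 2 animals with the least Hydin, 15 and 8, had the least Lrp2. With Foxj1 the Pearson r was 0.744 (exact permutation p = 0.027, adjusted p = 0.0927) and rho was 0.905 (exact permutation p = 0.0046, adjusted p = 0.0213). STAT3 KO 8 lay off the line of the others: without STAT3 KO 8 the r with Foxj1 was 0.915 and its adjusted p 0.0241 by the same exact permutation test, and without KO 8 and 15 it was 0.845. Averaged over the 32 genes of ependymal motile cilia in the files, the mean log2 level gave r = 0.938 with Lrp2 (exact permutation, adjusted p = 0.005, rho 0.952) and 0.911 without KO 8 and 15. All of these animals share 1 dissection scheme, and 4 animals of a sex or 4 controls are too few for a correlation of their own. STAT3 KO females had higher means than STAT3 KO males in Lrp2 (3.91 and 2.65 CPM), Hydin (10.2 and 6.52 CPM) and Foxj1 (32.5 and 26.4 CPM). The permutation pooled the sexes, so the part of sex in these r values was not tested. In the controls, animal 11 was highest and animal 3 next in Lrp2, Foxj1 and Hydin alike. Control 4 had the least Foxj1 and Hydin but more Lrp2 than control 13, from 40 and 26 counts with overlapping counting intervals.

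For Zfp956 no relation passed the adjustment with all 8 STAT3 KO animals. Its r with Foxj1 was 0.905 (exact permutation p = 0.0142, adjusted p = 0.0663, rho 0.690 with adjusted p = 0.194) and rested on STAT3 KO 8, the lowest animal in both genes. Without KO 8 and 15 it was 0.661, without KO 8 alone 0.54, and without KO 5 it was 0.946 with an adjusted p of 0.0424 by exact permutation. With Hydin r was 0.623 (exact permutation, adjusted p = 0.171), and 0.407 without KO 15 and 8. With the averaged cilia genes r was 0.709 (exact permutation, adjusted p = 0.0927), 0.397 without KO 8 and 15, and 0.782 without KO 5 (adjusted p = 0.0424). Negative r values of like size were found with choroid plexus genes (-0.699, exact permutation, adjusted p = 0.154) and oligodendrocyte genes (-0.632, adjusted p = 0.184). Without STAT3 KO 16 the r with choroid plexus genes was -0.931 (exact permutation, adjusted p = 0.0819), and without STAT3 KO 8 and 16 it was -0.481.

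**Figure D2:**
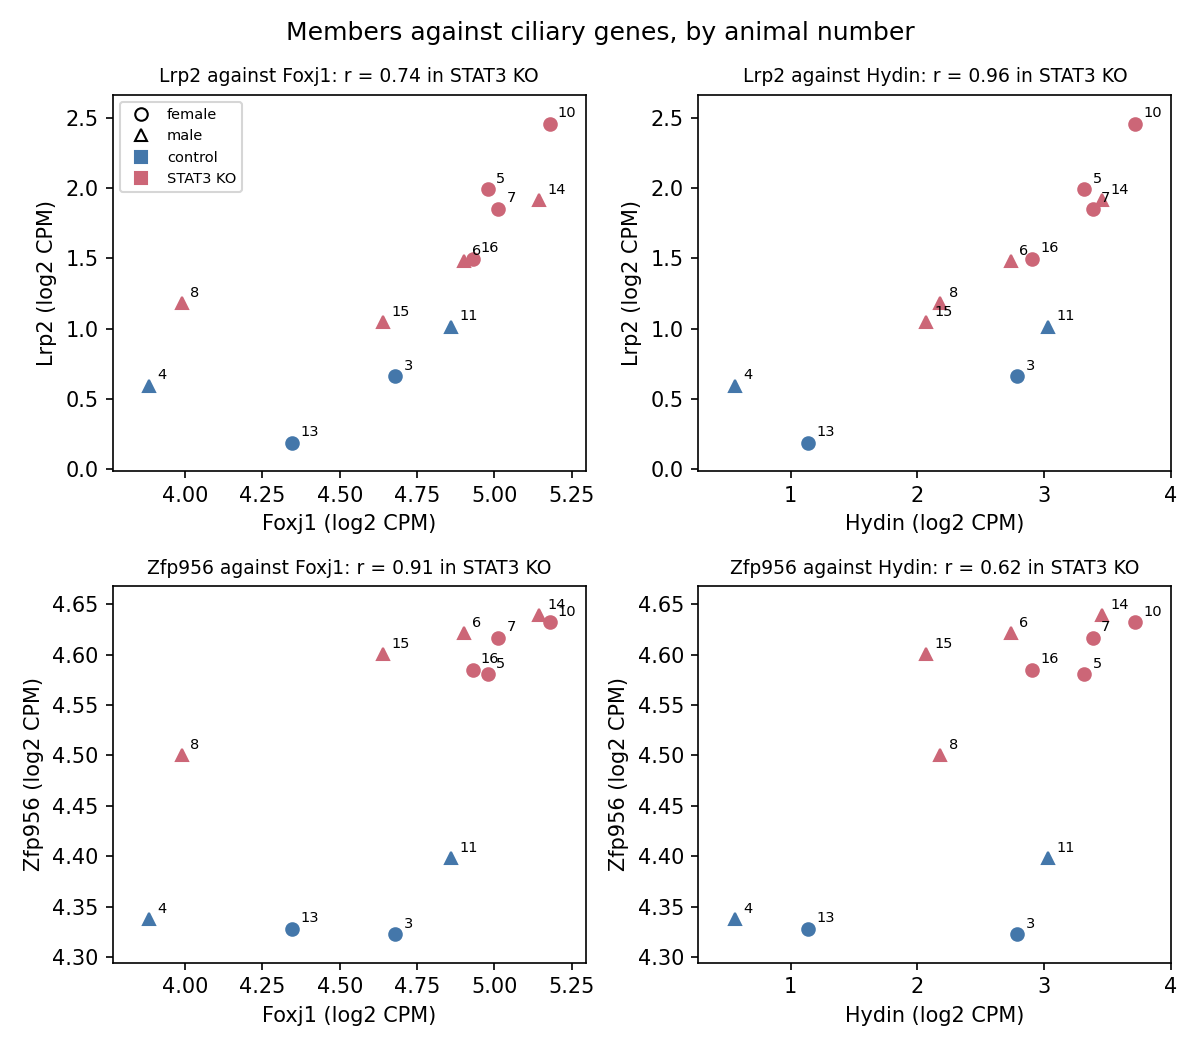
Log2 CPM of Lrp2 (upper panels) and Zfp956 (lower panels) against log2 CPM of Foxj1 (left) and Hydin (right), with 1 point per animal, its number beside it, controls in blue and STAT3 KO in red, females as circles and males as triangles. The 8 STAT3 KO points of Lrp2 against Hydin lie near a line (r = 0.961), and KO 8 lies apart in the panel of Zfp956 against Foxj1.

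Since Lrp2 and the ciliary genes varied together, their ratio was described between genotypes. Both members were chosen for STAT3 KO values above every control, and their ratios reuse those values. The differences and counts below are thus a description. Lrp2 relative to Hydin was -1.27 ± 1.02 (SD, n = 4) on the log2 scale in controls and -1.29 ± 0.21 (SD, n = 8) in STAT3 KO mice, with 0 of 8 STAT3 KO animals above all controls. Relative to the averaged cilia genes it was -0.93 ± 0.55 and -0.70 ± 0.16, again with 0 of 8. With all animals these ratios overlapped between genotypes. Relative to Foxj1 it was -3.83 ± 0.38 in controls and -3.17 ± 0.31 in STAT3 KO mice, a difference of 0.66, with 5 of 8 above all controls. Control 4 had the highest ratio among controls in all 3 cases, and the comparisons rested on it. Without control 4 the control mean relative to Hydin was -1.70, a difference of 0.41 in place of -0.028, with 0 of 8 STAT3 KO animals above the other controls. Relative to the averaged cilia genes the difference was then 0.47 in place of 0.23, with 7 of 8 above, and relative to Foxj1 it was 0.84, with 8 of 8 above. Leaving out other controls gave differences of -0.32 to 0.076 for Hydin, 0.061 to 0.25 for the averaged cilia genes and 0.55 to 0.65 for Foxj1. Zfp956 relative to Hydin was 2.47 ± 1.20 and 1.63 ± 0.58, and relative to Foxj1 -0.095 ± 0.41 and -0.25 ± 0.34. Without control 4 the difference relative to Hydin was -0.40 in place of -0.84, and that relative to Foxj1 was 0.028 in place of -0.15, so its direction turned. The difference relative to Foxj1 was -0.28 without control 11, -0.24 without control 3 and -0.26 without STAT3 KO 8.

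**Figure D3:**
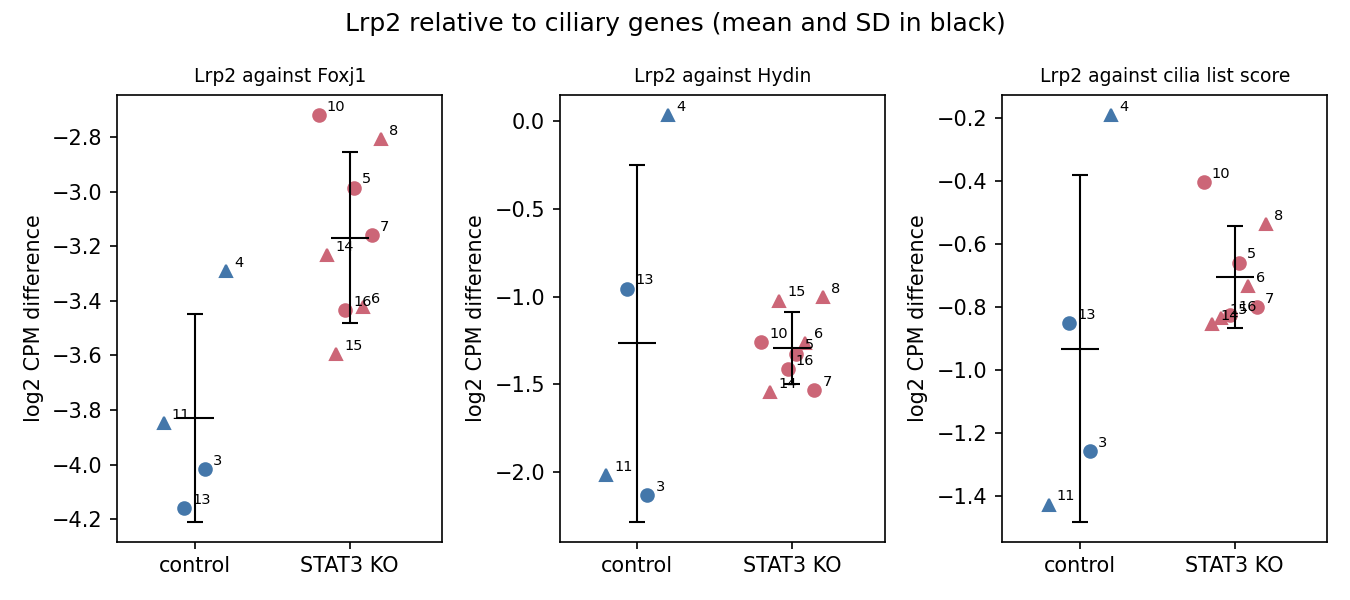
Log2 CPM of Lrp2 minus log2 CPM of Foxj1, Hydin or the mean of the cilia genes (vertical axes, not from 0) in each animal, with animal numbers, and the mean and SD in black. Against Hydin the group means are -1.27 and -1.29 with all controls, and the control mean is -1.70 without control 4, the highest control in each panel. Against Foxj1 the group means are -3.83 and -3.17.

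The genes whose pattern was most like that of Lrp2 were found by correlating log2 CPM, centred within genotype, over the 12 animals and 14142 genes. As a description, the 10 with the largest r were Pxdc1 (0.929), Dnah5 (0.922), Mak (0.914), Nnat (0.912), Map3k19 (0.912), Crb2 (0.907), Bmp6 (0.902), Gm973 (0.899), Casp9 (0.897) and Cd109 (0.893). Dnah5 encodes an axonemal dynein heavy chain, Mak a kinase of cilia, Crb2 an apical polarity protein and Bmp6 a secreted growth factor. The 31 ependymal cilia genes at this level had a median r of 0.766 with Lrp2, from 0.227 to 0.922, against a median of 0.0033 over all genes, and 27 of them were among the 500 genes most like Lrp2. Hydin had r = 0.760 and Foxj1 0.676 by this measure.

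For Zfp956 the 10 most alike were Pidd1 (0.927), Dchs1 (0.920), Mboat7 (0.915), Clstn3 (0.907), B630019K06Rik (0.907), Timp2 (0.897), Kif27 (0.895), Fbxo21 (0.888), Gsk3a (0.885) and Tmem8b (0.879). Dchs1 encodes a large cadherin, Clstn3 a synaptic adhesion protein, Timp2 an inhibitor of metalloproteinases and Gsk3a a protein kinase. The median r of the ependymal genes was 0.613, against -0.043 over all genes, and 6 of 31 were among its 500 closest. Zfp956 and Lrp2 had r = 0.591 with each other. All r values share the libraries, and with 12 animals the standard deviation of r over all genes was 0.342 for Lrp2 and 0.395 for Zfp956.

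Genes of ependymal motile cilia as a group had higher means in STAT3 KO mice. Of the 32 genes, 31 had a positive log2 fold change with a median of 0.69, against -0.0011 over all genes, and 0 had an adjusted p below 0.05 in edgeR's quasi-likelihood test. At an unadjusted p below 0.05, 20 were higher and 0 lower, where 3.61% of all genes were higher and 4.05% lower. The 2 genes with the lowest p, named after their values were seen, were Rsph1 and Dnaic1. The radial spoke gene Rsph1 was read at 4.45 ± 2.13 and 8.24 ± 2.25 CPM, and the dynein intermediate chain gene Dnaic1 at 4.64 ± 1.03 and 6.47 ± 1.01 CPM (SD, n = 4 and 8). The sum of the list ranged over 92.9 to 224 CPM among controls and 141 to 308 CPM among STAT3 KO animals, with none of the 32 at or under the floor everywhere. The count of 20 rested on the controls: it was 4 without control 4 (4.04% over all genes), 4 without control 13 (2.497%) and 30 without control 11 (4.58%). The median log2 fold change was 0.49, 0.53 and 1.17 in these 3 cases, with 32 of 32 positive in each. Without STAT3 KO 8 and 16 it was 27 (5.48%). The part of ependymal RNA in the genotype difference of Lrp2 was not tested.

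The mean levels of other cell types' genes gave no relation with Lrp2 that passed adjustment. Within STAT3 KO mice its r was -0.463 with the choroid plexus genes (exact permutation, adjusted p = 0.354), 0.460 with meningeal fibroblast genes (adjusted p = 0.354), -0.165 with oligodendrocyte genes (adjusted p = 0.753) and -0.343 with serotonergic genes (adjusted p = 0.482). A further 10 pairs were added after the data were seen. Among them endothelial genes had r = -0.790 with Lrp2 (exact permutation p = 0.0219, adjusted p = 0.165 over the 10) and -0.563 without STAT3 KO 10 and 14. For Zfp956 the r with endothelial genes was -0.714 (exact permutation, adjusted p = 0.165), and the other 8 r values were from -0.619 to 0.529. The choroid plexus genes had 5 of 15 higher at an unadjusted p below 0.05 in edgeR's test (3.61% over all genes), 0 of 14 without STAT3 KO 8 and 16 (5.48% over all genes), and 1 of 16 without control 4. Both of these animals had less Lrp2 than the STAT3 KO median, 2.20 and 2.75 CPM, and without them the log2 difference of Lrp2 was 1.18 and that of Zfp956 0.27. The 10 serotonergic genes, the cells in which Stat3 was deleted, had a median log2 fold change of 0.031 with 0 past an unadjusted p of 0.05. Without control 3 this median was -0.034, and without control 4 it was 0.098. The medians were -0.045 for meningeal fibroblast genes (1 of 13 higher and 1 lower at that p, and a median of 0.077 without control 3, 0.064 without control 4 and 0.016 without STAT3 KO 6), -0.050 for oligodendrocyte genes (0 of 10 higher, 1 lower, and 4 lower without STAT3 KO 8), 0.028 for astrocyte genes (2 of 10 higher, 1 lower), -0.014 for microglia and -0.035 for endothelial genes (0 of 10 in either direction for both). The microglia median was 0.016 without control 4 and 0.0095 without STAT3 KO 15, and the endothelial median was -0.0035 without STAT3 KO 10 and -0.087 without control 11, with 1 of 10 lower. The astrocyte median was 0.0063 without STAT3 KO 8 and 0.068 without control 11. That of oligodendrocyte genes was -0.095 without control 4 and -0.016 without control 13. The forebrain neuron genes had a median of -1.20 (3 of 10 lower, against 4.05% of all genes), but without control 4 the median was 0.42, with 10 of 10 positive and 0 past that p. The count lower was 7 without control 11, 6 without control 13 or control 3, 1 without STAT3 KO 8, and 0 with DESeq2 or with sex as a covariate. The cerebellar genes had a median of 1.33 (4 of 8 higher). Without STAT3 KO 16 it was 0.66 (1 of 8 higher), without STAT3 KO 10 it was 1.19 (1 of 8), without STAT3 KO 8 and 16 it was 0.76 (3 of 8), and 1 was higher without control 4 and 0 without control 11 or control 13.

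Next came the genes of proteins that work with megalin. Of 13 partners and adaptors, 0 had an unadjusted p below 0.05 (7.66% of all genes), and 1 without control 4 or with sex as a covariate, with 7 positive and 6 negative fold changes and a median of 0.0058 on the log2 scale, and of -0.014 without control 4. Cubn, the co-receptor cubilin, was read at 7.67 ± 0.687 and 7.82 ± 1.49 CPM, and Amn, its membrane anchor, at 7.07 ± 1.47 and 7.16 ± 0.679 CPM (SD, n = 4 and 8). Lrpap1, the chaperone that keeps ligands off these receptors during synthesis, had 205.6 ± 18.7 and 223.9 ± 11.5 CPM (log2 fold change 0.10, standard error 0.055, adjusted p = 0.717, and 0.051 without control 3). The endocytic adaptor Dab2 had a log2 fold change of 0.044, Ankra2 0.084 (0.025 without control 3), the endocytic myosin Myo6 -0.061 and the scaffold gene Mapk8ip2 -0.070 (-0.041 without STAT3 KO 8). Without control 3 Dab2 had -0.0063.

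Of 20 genes for megalin ligands, 16 passed the filter, with 1 higher and 2 lower at an unadjusted p below 0.05 (3.61% and 4.05% over all genes) and 0 past adjustment. Higher and lower were 1 and 0 without control 3, 3 and 1 without STAT3 KO 7, 2 and 3 without STAT3 KO 15. They were 0 and 1 without STAT3 KO 8 and 16. The growth factor gene Igf1 had 8.18 ± 2.31 CPM among controls and 6.24 ± 0.795 CPM among STAT3 KO animals, with 0 of 8 above the control mean (log2 fold change -0.41, standard error 0.14, adjusted p = 0.615, and -0.20 without control 3). Lpl, lipoprotein lipase, had -0.39 (standard error 0.17, adjusted p = 0.646). Apoe, the main apolipoprotein of brain, had 0.12 (standard error 0.060, adjusted p = 0.686). Ttr had 5.01 (standard error 1.98), but 6 of the 8 STAT3 KO animals were at 0.110 to 3.64 CPM, and without KO 8 and 16 its log2 fold change was -0.35.

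Within the LDL receptor family Lrp2 was the least abundant member per exon length. It had 0.089 ± 0.022 CPM per kb of exon in controls (SD, n = 4) and 0.196 ± 0.067 in STAT3 KO mice (SD, n = 8), 15th of 15 genes, below Lrp5 at 1.35 in controls. The endocytic receptor Lrp1 had 29.0 CPM per kb in controls and Lrp11 50.3. Of the other 14 members 0 were higher and 2 lower at an unadjusted p below 0.05, and 0 passed adjustment, where 3.61% of all genes were higher and 4.05% lower. Without control 3 there were 0 at the unadjusted threshold, without control 11 there was 1 lower, without STAT3 KO 16 or STAT3 KO 6 there were 1 higher and 2 lower, and without STAT3 KO 8 and 16 there were 2 higher and 1 lower. The 2 lower genes were Lrp4, the agrin receptor (log2 fold change -0.21, standard error 0.073, adjusted p = 0.615, and -0.12 without control 3) and Lrp11 (-0.10, standard error 0.040). The Wnt co-receptor gene Lrp6 had a log2 fold change of -0.069, and -0.027 without control 3.

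**Figure D4:**
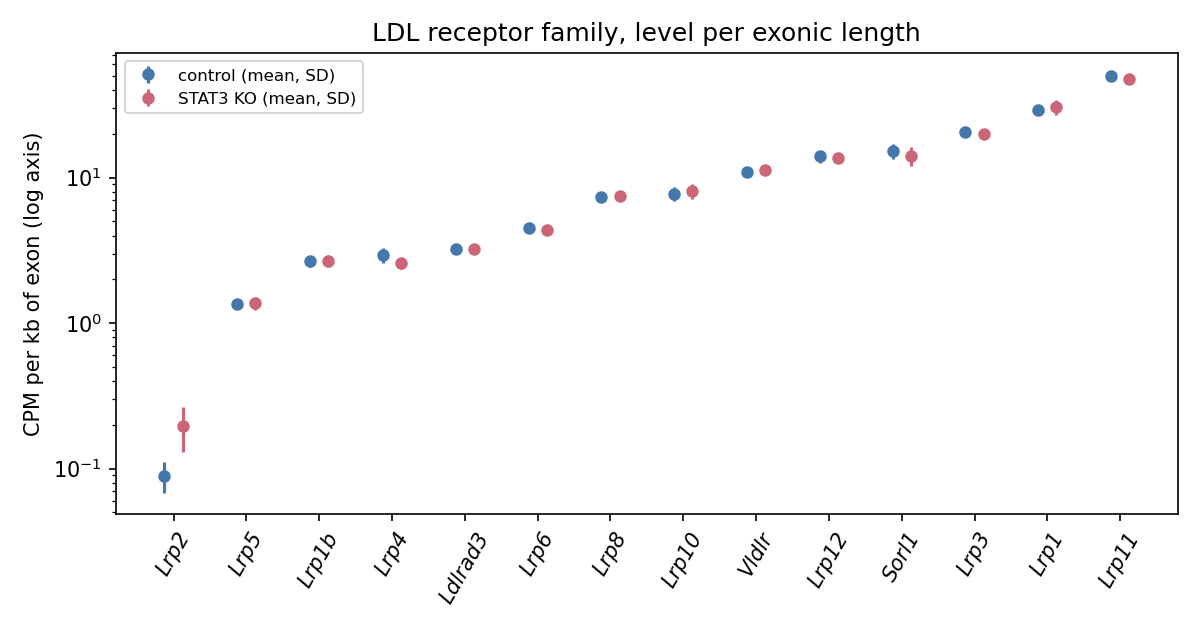
Mean level per exon length (CPM per kb, log axis) of Lrp2 and 13 of the 14 other genes of the LDL receptor family in controls (blue) and STAT3 KO mice (red), with SD as bars. Lrp2 is lowest in both groups, at 0.089 and 0.196 CPM per kb.

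Megalin binds Sonic hedgehog, so the genes of that pathway were counted. Of 15, 13 passed the filter, 10 with positive and 3 with negative fold changes and a median of 0.052 (0.017 without control 11 and 0.018 without control 13). Gli1, a transcription factor and target of the pathway, had 7.75 ± 1.51 CPM among controls and 9.77 ± 1.09 CPM among STAT3 KO animals, with 8 of 8 above the control mean (log2 fold change 0.31, standard error 0.12, unadjusted p = 0.018, adjusted p = 0.615). It was the only gene of the 13 with an unadjusted p below 0.05 (3.61% of all genes were higher). There were 0 without control 3 or control 4, 2 without control 11 or STAT3 KO 8, and 3 without STAT3 KO 8 and 16. Without control 3 the log2 fold change of Gli1 was 0.21. Gli2 had a log2 fold change of 0.22 (0.14 without control 3) and the co-receptor gene Cdon of 0.15.

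For Zfp956 the comparison group was the machinery through which KRAB zinc finger proteins silence DNA. Whether Zfp956 itself works through this machinery was not tested. Of 14 genes, 0 had an unadjusted p below 0.05 (7.66% of all genes), and 1 without STAT3 KO 8 or control 4, and the log2 fold changes ran from -0.041 to 0.060. Trim28, the co-repressor, was read at 114.3 ± 2.65 and 120.5 ± 9.01 CPM (SD, n = 4 and 8). The maintenance DNA methyltransferase gene Dnmt1 had mean levels of 69.3 and 72.9 CPM, Morc2a 54.8 and 57.2 CPM, and Pphln1 53.3 and 52.6 CPM.

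Genes next to Zfp956 on chromosome 6 include other zinc finger genes. Of the 20 nearest genes 19 passed the filter, 13 with positive and 6 with negative fold changes and a median of 0.033, and 3 were higher at an unadjusted p below 0.05 (3.61% over all genes), and 5 without STAT3 KO 8. Those were Zfp467 (30.5 ± 1.20 and 33.8 ± 1.47 CPM, log2 fold change 0.13, adjusted p = 0.615), Zfp212 (14.9 ± 0.974 and 16.5 ± 0.783 CPM, 0.13, adjusted p = 0.646) and Rarres2, the chemerin gene (8.33 ± 4.97 and 14.4 ± 4.41 CPM, 0.77, and 0.55 without control 4 or 1.21 without control 11). Sspo, the gene of SCO-spondin, a secreted glycoprotein of the cerebrospinal fluid, had 0.36 (standard error 0.18, unadjusted p = 0.067). The pseudogene Zfp783 overlaps 290 exonic bases of Zfp956 (9.77%) and was read at 14.8 ± 1.94 and 16.4 ± 1.40 CPM, with overlapping groups. Reads of related zinc finger genes could be shared by Zfp956, so that its level is uncertain to that extent. Of the 20 genes nearest to Lrp2 on chromosome 2, 13 passed the filter, with a median of -0.0021, 1 higher and 1 lower at an unadjusted p below 0.05 (3.61% and 4.05% over all genes). Without control 13 the median was 0.019, with 9 of 13 positive and 0 past that p. Ccdc173 had 3.41 ± 0.554 and 4.29 ± 0.509 CPM (log2 fold change 0.31, standard error 0.12, adjusted p = 0.615), and Stk39, a kinase gene, had 153.7 ± 15.2 and 140.0 ± 7.96 CPM (log2 fold change -0.16, standard error 0.059). Nostrin, which encodes a regulator of nitric oxide synthase traffic, had a log2 fold change of -0.23 (-0.12 without control 3), and the ubiquitin ligase gene Ubr3 -0.077.

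**Figure D5:**
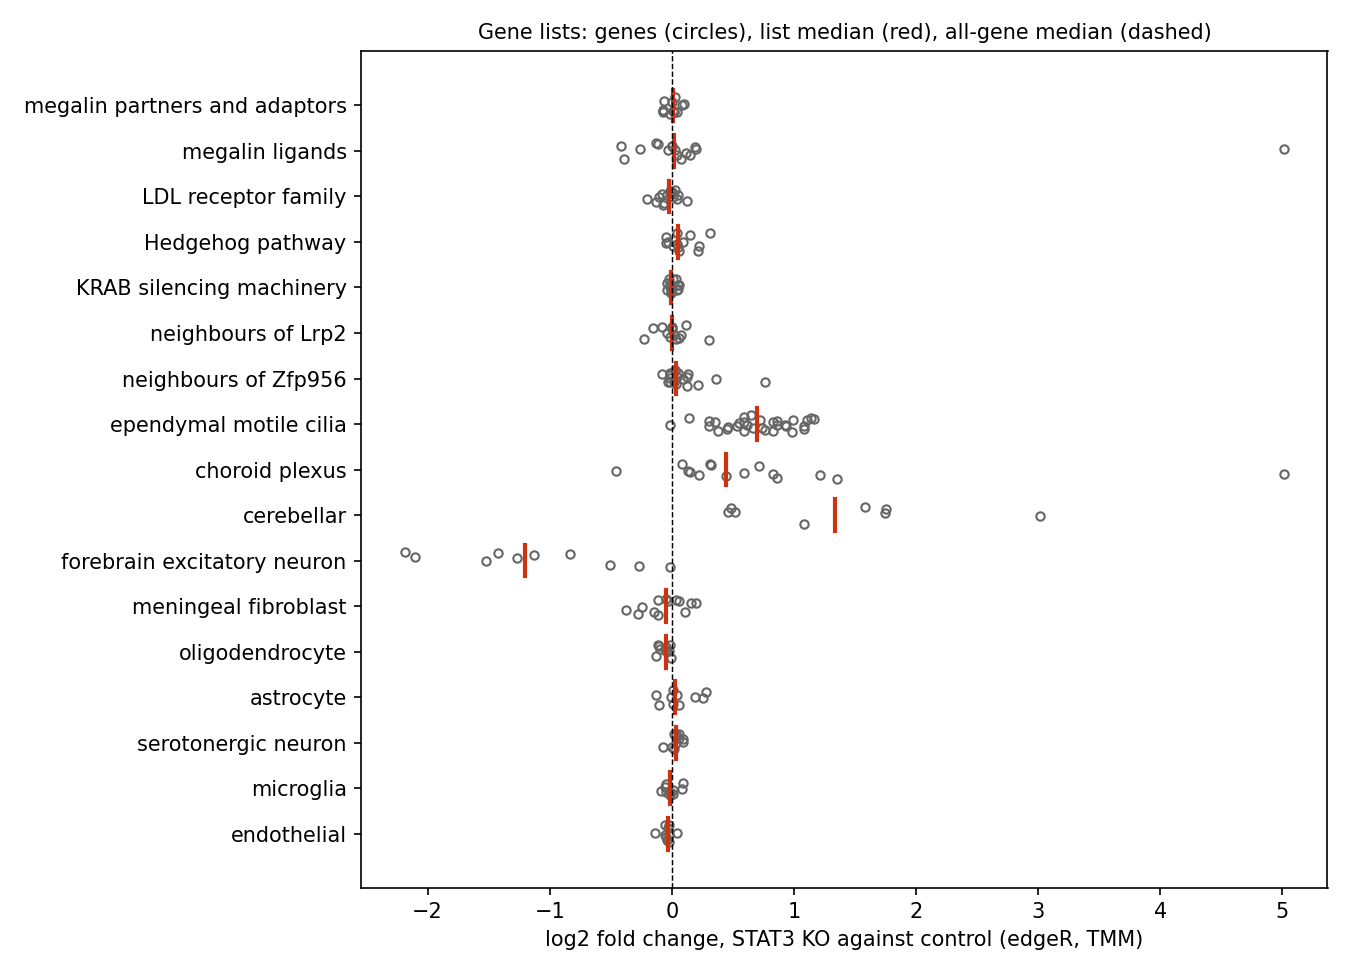
Log2 fold change of STAT3 KO against control (horizontal axis, edgeR with TMM) for every tested gene of each list (circles), with list medians as red lines and the median of all genes dashed. The ependymal cilia genes centre on 0.69 and the partners of megalin on 0.0058, and the single gene near 5.01 in the ligand and choroid plexus lists is Ttr.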

How the data were processed

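RNA of the DR of 4 control and 8 STAT3 KO mice was sequenced with 1 library per animal. The authors mapped reads to mm10 (STAR 2.5.0b and DESeq2 1.6.3 are named in the submitters' processing notes) and deposited raw counts per gene symbol; counter, annotation and strand setting are not given in the sources used here. Genotype, sex and animal number came from the labels. The lines for reads on no single gene were left out; 84.2% to 86.1% of listed reads were on genes. CPM was taken over all gene rows, and log2 CPM with a prior count of 2.

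Lrp2, Zfp956 and all gene lists were chosen with earlier results of these data known, as was their relation to Foxj1 and Hydin. Genes were filtered with filterByExpr (10 counts, 15 in total; 15453 left) and tested with edgeR 4.0.16 (two-sided quasi-likelihood test, TMM, no covariate, Benjamini-Hochberg threshold 0.05). Tests on simulated counts with 197 changed genes recovered 97% for genotype, over 15381 genes, with 2.55% false calls. For sex they recovered 96.5% with 2.05% false calls, and for the interaction 83.4% with 4.05%. Recovery by size of difference was not tested, so these values do not give the share of real differences found here. Correlations used exact permutation of pairings with scipy 1.17.1. The text names the members, Foxj1, Hydin, Stat3, the 10 genes most alike, and, per list and among 10 neighbours on either side, the 4 genes with the smallest unadjusted p, with Cubn, Amn, Lrpap1 and Dab2 as binding partners. Of these genes 2 are not reported here by name, and stay in the tests and counts. Positions are those of GENCODE vM21. Alternatives were DESeq2 1.42.0, size factors, other filters, a prior count of 0.5, sex as a covariate and animals left out.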

Additional observations from a re-analysis of the deposited data

Results flagged for a closer look

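A single animal stood far from the others of its group for 5 of 92 groups of values examined, where chance gives about 4.6. In STAT3 KO mice, animal 8 had a Zfp956 level of 4.50 log2 CPM against 4.58 to 4.64 in the other 7, a Foxj1 level of 3.99 against 4.64 to 5.18, and a Trim28 level of 6.64 against 6.89 to 7.02. In controls, animal 4 had a Myo6 level of 7.61 log2 CPM against 7.72 to 7.73 in the other 3, and a mean forebrain neuron level of 4.14 against 0.98 to 1.13. Myo6 encodes a myosin that works with megalin in endocytosis.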

How the results depend on the processing

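The number of genes higher in every STAT3 KO animal was 33 with TMM, 34 with size factors, 228 without STAT3 KO 8 and 16, and 61 to 227 without 1 animal at a time, where a smaller group makes the rule easier to meet. Without 1 animal at a time, the log2 difference of Lrp2 was 0.92 to 1.20 and that of Zfp956 0.24 to 0.27. The sex differences were -0.37 to -0.098 and -0.0071 to 0.026, the latter changing sign without control 3 (-0.00014), control 11 or STAT3 KO 14. The r of Lrp2 was 0.73 to 0.92 with Foxj1 and 0.94 to 0.98 with Hydin, and that of Zfp956 0.54 to 0.95 and 0.40 to 0.80. Genes called for genotype were 6 with DESeq2, 2 with its independent filtering (chosen after seeing the data) and 0 to 1 without 1 animal, the 1 being Slc17a6 without control 4. Genes called for sex were 4 with 10 counts in every library (Ddx3x, Kdm6a, Eif2s3x and Kdm5c), 23 and 24 with the DESeq2 settings and 10 to 13 without 1 animal. Genes called for the interaction were 2 with either DESeq2 setting and 0 to 37 without 1 animal, the 37 without control 11, which left 1 control male. Without control 4 the median of the forebrain neuron genes turned from -1.20 to 0.42. Without control 3 that of the serotonergic genes turned from 0.031 to -0.034. Signs also changed for Ttr (-0.24 with DESeq2, -0.35 without STAT3 KO 8 and 16), Lrp2 with oligodendrocyte genes (r 0.098 without both; -0.32 to 0.105 without 1 animal, the highest without KO 8), Zfp956 with meningeal genes (0.035, 0.142, 0.049 and 0.067 without KO 16, 6, 14 and 5; lowest -0.60) and with serotonergic genes (-0.54 to 0.021, the latter without KO 14), and Dab2 (-0.0063 without control 3, highest 0.10). The cause was not tested. Controls were littermates, but the labels used here give no litter, so no test paired or blocked animals by litter. With 26 to 51 counts of Lrp2 in controls, counting error limits its fold.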
